A study of Homo sapiens with 8 samples.

Results

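The genes described here are 10 members of the BCL2 family, which sets whether a cell survives or dies by the mitochondrial route. They were taken by gene name from the expression table: the survival genes MCL1, BCL2, BCL2L1 and BCL2L2, the pore-forming gene BAK1, and the BH3-only genes PMAIP1, BID, BCL2L11, BAD and BMF. All 10 were among the 31461 genes listed, and 8 were among the 14635 genes tested, since BCL2 and BMF stayed under 1 FPKM in every library. FPKM is the number of sequenced fragments corrected for transcript length and for sequencing depth, so levels of different genes can be set side by side.

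RNA was sequenced from human lung cancer cell lines, A549 (lung adenocarcinoma) and NCI-H1299 (large cell carcinoma), after transfection with the control microRNA miR-ctrl or with miR-29a-3p. The 4 groups were A549 control, A549 miR-29a-3p, H1299 control and H1299 miR-29a-3p, with 2 libraries each. The genotype of every library was given as wild type, and the control cells were transfected too, so no untransfected cells enter a comparison. The design asked which genes miR-29a-3p may target in these lines. Dose, time after transfection and passage were not given in the sources used here, nor whether the replicates were separate cultures, so the spread between libraries may be technical.

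The survival proteins hold the pore formers BAK and BAX inactive at the outer mitochondrial membrane. BH3-only proteins respond to stress, block the survival proteins or activate the pore formers directly, and the released cytochrome c then starts the caspases. PMAIP1 encodes NOXA, whose protein binds and blocks MCL1, and MCL1 and several BH3-only genes have been reported as targets of the miR-29 family.

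The microRNA is shown because the sites compared below are matches to its seed (bases 2 to 8, in capitals). It lies at chr7:130876748-130876769 on the minus strand (GRCh38.p14, RefSeq), and miR-29b-3p and miR-29c-3p carry the same seed.
miR-29a-3p: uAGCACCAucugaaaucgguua
The seed pairs with TGGTGCT in a messenger RNA, called a 7mer-m8 match. TGGTGCTA is an 8mer, GGTGCTA without the leading T a 7mer-A1, and GGTGCT alone a 6mer; a longer match contains the shorter ones, and only the sense strand of the 3′ UTR was searched. In the longest annotated 3′ UTR of each gene (GENCODE 29, GRCh38), BAK1, MCL1 and BMF held an 8mer and BCL2 a 7mer-m8. These are the strongest matches of those 4 genes, written 5′ to 3′ on the minus strand with the match in capitals.
BAK1: acctcaacattgcaTGGTGCTAgtgg
MCL1: ggctagtctaaccaTGGTGCTAttat
BMF: agaaaagacaacatTGGTGCTAacag
BCL2: ttcctgaaatgcagTGGTGCTtacg
The BAK1 stretch lies at chr6:33573604-33573629, with its match starting 382 bases into a 3′ UTR of 1450 bases, and all 3 BAK1 transcripts with a 3′ UTR hold it. The MCL1 stretch lies at chr1:150576035-150576060, at base 1329 of 2824, in 2 of 3 transcripts, and MCL1 has a 6mer further on. The BMF stretch lies at chr15:40090391-40090416, at base 1385 of 3897, and a 7mer-m8 and a 6mer follow it, all in 2 of 5 transcripts. The BCL2 stretch lies at chr18:63126261-63126285, at base 2354 of 5279, in 1 of 3 transcripts.

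BCL2L2 held a 7mer-A1 and BCL2L11 held 2 6mers. BCL2L1, PMAIP1, BID and BAD had no 6mer in the longest 3′ UTR, although 1 of the 10 BID transcripts with a 3′ UTR held a 7mer-m8. So 4 of 10 members had an 8mer or 7mer-m8 by the longest 3′ UTR and 5 of 10 by any protein-coding transcript. Of all 19133 genes with a 3′ UTR, 3.10% had an 8mer as their strongest match, 11.3% a 7mer-m8 and 69.8% no 6mer. Long 3′ UTRs hold such matches more often. Among genes with a 3′ UTR within 10% of the length of the member, an 8mer or 7mer-m8 was held by 13.8% for BAK1, 24.6% for MCL1, 29.6% for BMF and 38% for BCL2. An 8mer alone was held by 3.07% of genes of about the length of BAK1, 5.08% for MCL1 and 5.05% for BMF. A match is a match of letters and was not tested as a binding site.

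**Figure D1:**
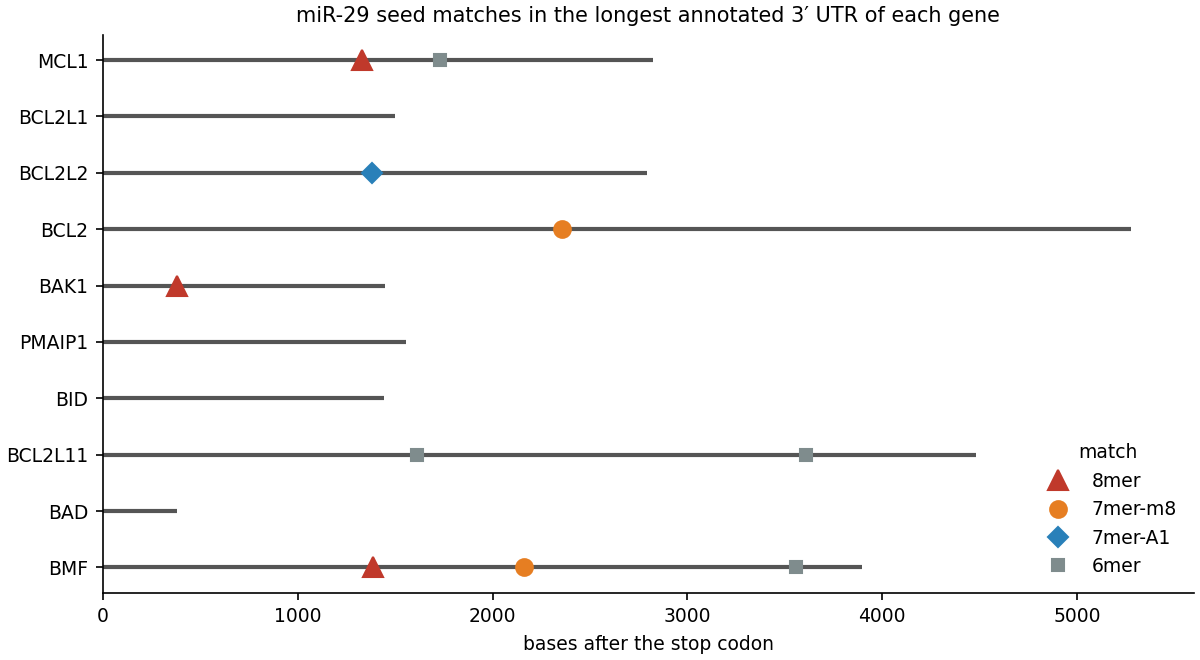
Positions of miR-29 seed matches (symbols) along the longest annotated 3′ UTR of each of the 10 genes (horizontal lines), with bases after the stop codon on the horizontal axis. The BAK1 8mer lies 382 bases after the stop codon, while the 8mers of MCL1 and BMF lie at 1329 and 1385.

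Facts of the whole series bear on how the lines are named. CDKN2A, which is deleted in A549, lay between 23.8 and 24.8 FPKM in the libraries labelled A549 control and between 0.0513 and 0.112 in those labelled H1299 control, and the summed level of 7 A549 markers was 190 to 200 FPKM against 1150 to 1180. ALDH1A1 made up most of the latter, at 809 and 785 FPKM. These markers lay opposite to the labels except GPX2, whose libraries overlapped (1.16 and 2.38 FPKM against 1.01 and 2.15). Lines are therefore named as labelled throughout, and a direction between lines holds for the labels only. Depth was estimated at 12221310 to 15614821 fragments per library, and replicates differed by a median of 0.079 to 0.088 on the log2(FPKM + 1) scale. Summed leukocyte and endothelial markers stayed under 1 FPKM in every library. Fibroblast markers summed to at most 0.493 FPKM in the A549 libraries, to 2.20 to 2.32 in the H1299 controls and to 3.43 to 3.50 after miR-29a-3p, and their part in the results was not tested. Bulk RNA cannot tell fewer cells expressing a gene from less RNA per cell.

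Across the family, BAK1 was lower and PMAIP1 higher after miR-29a-3p in each line, and the other members either changed in 1 line by the test or in neither. In the A549 libraries 1 of the 8 tested members rose (PMAIP1) and 1 fell (BAK1), against 16.0% of all genes tested that were called (7.30% higher and 8.66% lower). In the H1299 libraries 3 rose (PMAIP1, BID and BCL2L11) and 2 fell (BAK1 and BCL2L1), against 50.0% of all genes (25.1% higher and 24.8% lower). The members' shares of 25.0% and 62.5% are thus read against a high background, above all for H1299. The median log2 fold change of the 8 members was -0.09 in A549 and -0.10 in H1299, and that of all genes was 0.00 in both. Treated and control libraries did not overlap for 5 of 8 members in A549, against 59.0% of all genes (29.8% higher and 29.2% lower). They did not overlap for 7 of 8 in H1299, against 76.0% of all genes (38.5% higher and 37.4% lower). Every fold change is miR-29a-3p over control in log2(FPKM + 1), where low genes show a smaller change than their FPKM ratio, and every adjusted p is from limma over all genes tested, with 0.05 as the threshold.

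**Figure D2:**
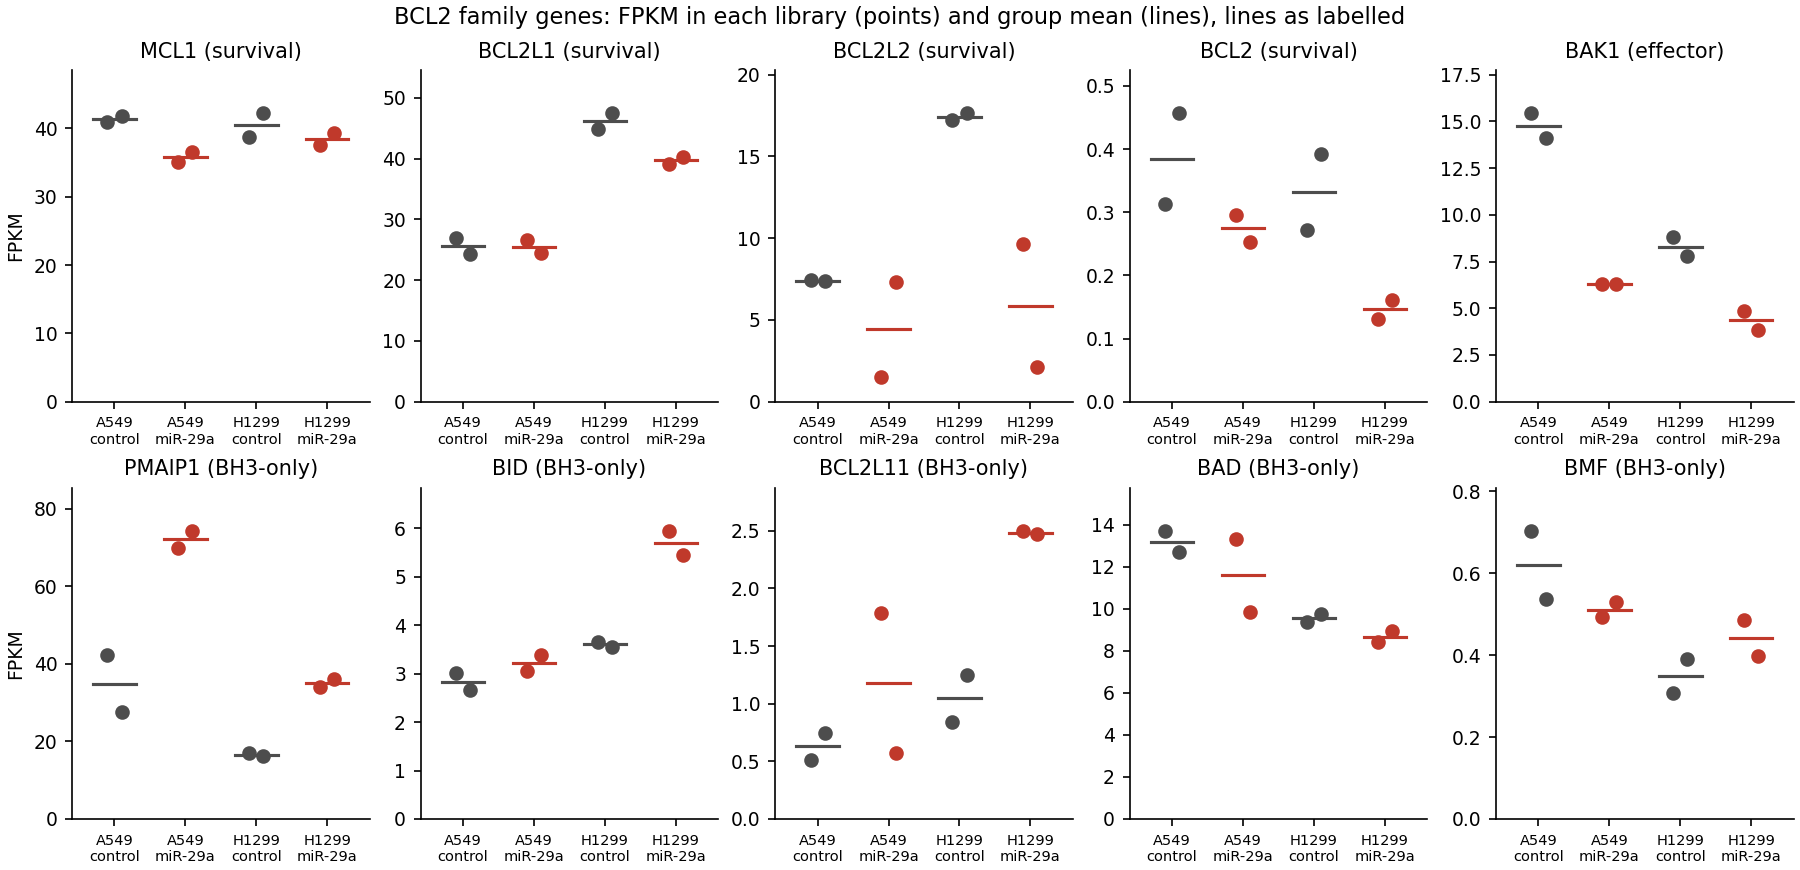
FPKM of the 10 genes in each of the 8 libraries (points) with the mean of each group (short lines), by labelled line and transfection, each gene on its own axis from 0. BAK1 falls from 15.4 and 14.1 to 6.28 and 6.30 in A549, PMAIP1 rises in both lines, and BCL2L2 has 1 low library in each treated group.

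MCL1 (ENSG00000143384, chromosome 1, 150574551 to 150579738, minus strand, GRCh38) encodes a short-lived survival protein and had the highest mean FPKM of the survival genes in A549. It measured 40.9 and 41.9 FPKM in the A549 controls and 35.1 and 36.6 after miR-29a-3p. Both treated libraries were below both controls. The log2 fold change was -0.20 ± 0.055 (SE, 95% interval -0.34 to -0.07), with an adjusted p of 0.055 that just missed the threshold. It passed at 0.041 when only genes with a mean of at least 5 FPKM were tested and at 0.049 without H1299 control replicate 1 or replicate 2. In H1299, MCL1 measured 38.8 and 42.2 FPKM in the controls and 37.6 and 39.4 after miR-29a-3p, and these groups overlapped (log2 fold change -0.07 ± 0.055, adjusted p = 0.34, 95% interval -0.20 to 0.06). The difference between the lines' responses was -0.13 (95% interval -0.32 to 0.05, adjusted p = 0.23), so the responses were not shown to differ.

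BCL2L1 (ENSG00000171552, chromosome 20, 31664452 to 31723989, minus strand) encodes the survival protein BCL-XL together with a shorter death-promoting form, and gene-level values cannot separate them. It measured 26.9 and 24.2 FPKM in the A549 controls and 26.6 and 24.5 after miR-29a-3p, which overlapped fully (limma, log2 fold change 0.00, 95% interval -0.16 to 0.16, adjusted p = 0.99). In H1299 it stood at 44.9 and 47.4 FPKM in the controls and at 39.2 and 40.2 after miR-29a-3p, with no overlap. The log2 fold change there was -0.21 ± 0.067 (SE, adjusted p = 0.038). That call was lost in 7 of 15 alternatives, among them rescaled libraries and the loss of any 1 of the 4 H1299 libraries, with adjusted p up to 0.16. The responses of the lines were not shown to differ (0.21, 95% interval -0.02 to 0.44, adjusted p = 0.13). Exons of the antisense gene ABALON cover 43.0% of the BCL2L1 exon bases, and ABALON was listed at no more than 0.237 FPKM in any library.

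BCL2L2 (ENSG00000129473, chromosome 14, 23298790 to 23311759, plus strand), which encodes the survival protein BCL-w, varied most between replicates. It measured 7.41 and 7.39 FPKM in the A549 controls and 1.54 and 7.30 after miR-29a-3p. In H1299 it measured 17.2 and 17.6 in the controls and 9.67 and 2.09 after miR-29a-3p. The low value in A549 came from replicate 1 and that in H1299 from replicate 2, while the other treated library of A549 sat just under the controls. Neither response passed the test, at -0.87 ± 0.69 (SE, adjusted p = 0.45) in A549 and -1.68 ± 0.69 (SE, adjusted p = 0.087) in H1299. Without H1299 miR-29a-3p replicate 1 the H1299 value was -2.57, which rests on the library at 2.09 FPKM. The treated library left without replicate 2 stood at 9.67 FPKM, nearer to the H1299 controls. The readthrough gene BCL2L2-PABPN1 shares 19.4% of the BCL2L2 exon bases on the same strand and stood between 3.07 and 4.76 FPKM in the 8 libraries. The readthrough gene was at 3.40 FPKM in the A549 library where BCL2L2 was low, beside 3.91 and 4.07 in the A549 controls. In the H1299 library where BCL2L2 was low it was at 4.76, beside 4.10 and 3.57 in the H1299 controls. The division of fragments between the 2 genes is uncertain, and its part in the low values was not tested.

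BCL2 itself (ENSG00000171791, chromosome 18, 63123346 to 63320128, minus strand), the founding survival gene, was barely measured in these lines. It stood at 0.313 and 0.456 FPKM in the A549 controls, 0.295 and 0.254 after miR-29a-3p, 0.272 and 0.393 in the H1299 controls and 0.131 and 0.162 after miR-29a-3p. The treated libraries lay below the controls in both lines. These levels correspond to at most 44 estimated fragments per library. In a fit without the filter on low values the log2 fold changes were -0.12 (adjusted p = 0.49) in A549 and -0.22 (adjusted p = 0.090) in H1299, so no change passed at this depth.

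BAK1 (ENSG00000030110, chromosome 6, 33572547 to 33580293, minus strand), the pore former of the outer mitochondrial membrane, fell in both lines and carries the 8mer printed above in each of its annotated 3′ UTRs. It measured 15.4 and 14.1 FPKM in the A549 controls and 6.28 and 6.30 after miR-29a-3p. In H1299 it measured 8.81 and 7.80 in the controls and 4.85 and 3.85 after miR-29a-3p. In neither line did treated and control libraries overlap, and the mean FPKM was 57.4% lower in A549 and 47.6% lower in H1299. The log2 fold changes were -1.11 ± 0.10 (SE, adjusted p = 0.0018) and -0.80 ± 0.10 (SE, adjusted p = 0.0010). Both passed in all 15 alternatives run, with adjusted p of at most 0.017 and 0.015. Of all genes tested, 4.07% were called lower in both lines. The responses differed by -0.31 (95% interval -0.66 to 0.05, adjusted p = 0.15), which passed at 0.045 only without H1299 miR-29a-3p replicate 2.

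PMAIP1 (ENSG00000141682, chromosome 18, 59899948 to 59904306, plus strand), the gene of NOXA, rose in both lines by about the same factor from different starting levels. It measured 42.3 and 27.6 FPKM in the A549 controls and 70.0 and 74.4 after miR-29a-3p. In H1299 it measured 17.0 and 16.3 in the controls and 33.9 and 36.1 after miR-29a-3p. No treated library overlapped its controls, although the A549 controls were themselves far apart. The treated mean was 2.07 times the control mean in A549 and 2.11 times in H1299. The log2 fold changes were 1.06 ± 0.18 (SE, adjusted p = 0.012) and 1.03 ± 0.18 (SE, adjusted p = 0.0033). The H1299 call held in all 15 alternatives. The A549 call was lost without miR-29a-3p replicate 1 (adjusted p = 0.056), without miR-29a-3p replicate 2 (adjusted p = 0.064) and when A549 was fitted alone (adjusted p = 0.071). Of all genes tested, 2.94% were called higher in both lines. The difference between the responses was 0.02 with a 95% interval of -0.57 to 0.62, and without A549 control replicate 1, the higher of the A549 controls, it was 0.32 and passed (adjusted p = 0.046).

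BID (ENSG00000015475, chromosome 22, 17734138 to 17774770, minus strand) links the death receptors to mitochondria once caspase 8 has cut its protein. It measured 3.66 and 3.55 FPKM in the H1299 controls and 5.95 and 5.44 after miR-29a-3p. Every treated library was above both controls, and the log2 fold change was 0.54 ± 0.076 (SE, adjusted p = 0.0015), which held in all 14 alternatives that kept the gene. In A549 it measured 3.01 and 2.66 FPKM in the controls and 3.06 and 3.38 after miR-29a-3p, with no overlap, and the response of 0.14 ± 0.076 (SE, adjusted p = 0.27) did not pass. BID was the 1 member of 8 whose responses differed between lines (-0.40 ± 0.11, SE, A549 minus H1299, adjusted p = 0.028), against 37.3% of all genes tested (18.1% higher and 19.2% lower in A549). That difference was lost in 7 of 13 alternatives, with adjusted p up to 0.088, including the loss of either H1299 control, H1299 miR-29a-3p replicate 1, A549 control replicate 1 or A549 miR-29a-3p replicate 1.

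BCL2L11 (ENSG00000153094, chromosome 2, 111119378 to 111168447, plus strand) encodes BIM, which activates the pore formers and binds every survival protein of the family. It measured 0.838 and 1.25 FPKM in the H1299 controls and 2.5 and 2.47 after miR-29a-3p. It reached 1 FPKM in 4 libraries, which were both treated H1299 libraries, H1299 control replicate 2 and A549 miR-29a-3p replicate 1. The H1299 groups did not overlap, and the log2 fold change of 0.78 ± 0.26 (SE, adjusted p = 0.046) passed narrowly. It was lost in 9 of 14 alternatives, including the loss of any H1299 library or either A549 control and a pseudocount of 0.1, with adjusted p up to 0.19. In A549 it measured 0.510 and 0.749 FPKM in the controls and 1.79 and 0.573 after miR-29a-3p. Replicate 1 was high and replicate 2 lay between the controls (log2 fold change 0.37 ± 0.26, adjusted p = 0.39). Without that second replicate the A549 value was 0.78. The treated library left without replicate 1, at 0.573 FPKM, lay between the controls, so the A549 rise rests on replicate 1. The difference between the responses was -0.41 (95% interval -1.29 to 0.47, adjusted p = 0.42). Exons of MIR4435-2HG on the opposite strand overlap 10.9% of the BCL2L11 exon bases. That gene stood at 3.50 and 2.66 FPKM in the H1299 controls and 1.41 and 1.48 after miR-29a-3p, in the other direction, and the strand setting of the counting was not given in the sources used here.

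BAD (ENSG00000002330, chromosome 11, 64269830 to 64284704, minus strand), a BH3-only gene whose protein is kept inactive by phosphorylation, did not pass in either line. It measured 13.7 and 12.7 FPKM in the A549 controls and 13.3 and 9.84 after miR-29a-3p. In H1299 it measured 9.39 and 9.76 in the controls and 8.41 and 8.94 after miR-29a-3p. The A549 groups overlapped and the H1299 groups did not, with log2 fold changes of -0.19 ± 0.13 (SE, adjusted p = 0.37) and -0.13 ± 0.13 (SE, adjusted p = 0.44). Without A549 miR-29a-3p replicate 1 the A549 value was -0.39. The treated library left without replicate 2, at 13.3 FPKM, lay between the A549 controls, so that decrease rests on replicate 2. Exons of GPR137 on the opposite strand overlap 23.7% of those of BAD, and GPR137 stood between 1.72 and 3.44 FPKM.

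BMF (ENSG00000104081, chromosome 15, 40087890 to 40108892, minus strand), a BH3-only gene whose protein is tethered to the cytoskeleton, was low in every library and carries 3 seed matches in its longest 3′ UTR, more than any other member. It stood at 0.704 and 0.537 FPKM in the A549 controls and 0.492 and 0.529 after miR-29a-3p. In H1299 it stood at 0.306 and 0.392 in the controls and 0.486 and 0.398 after miR-29a-3p. The treated libraries lay below the controls in A549 and above them in H1299. Without the filter on low values neither change passed (log2 fold change -0.10, adjusted p = 0.57 and 0.10, adjusted p = 0.46), at no more than 42 estimated fragments per library.

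**Figure D3:**
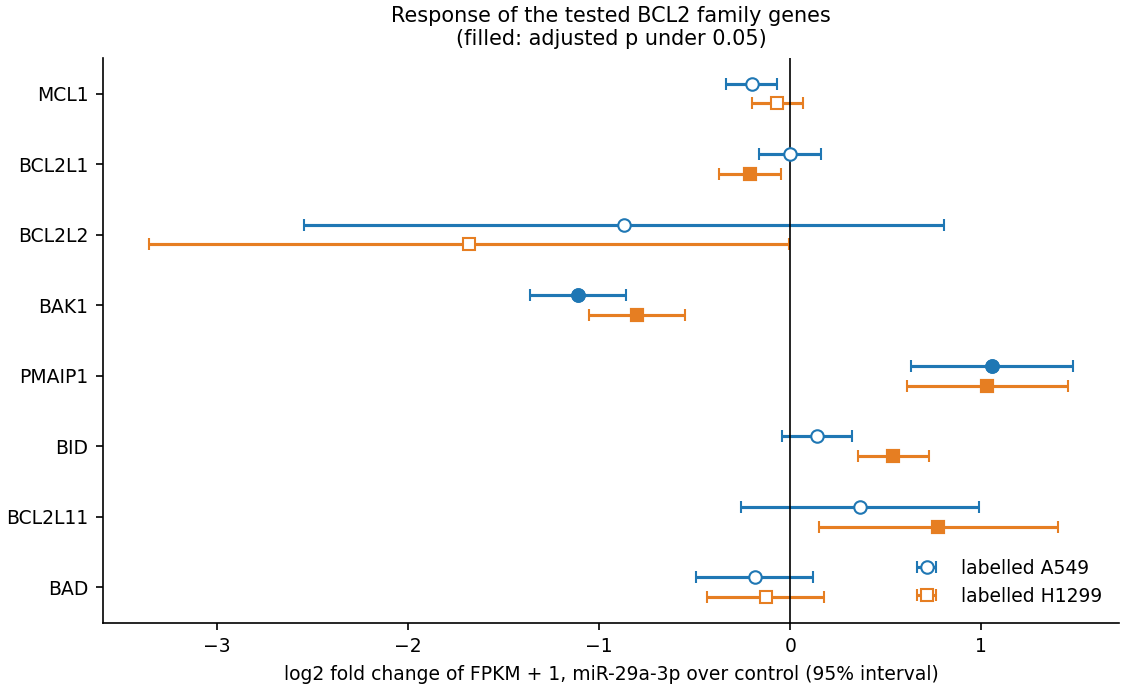
Log2 fold change of FPKM + 1 after miR-29a-3p with its 95% interval (horizontal axis) for the 8 tested genes, with circles for libraries labelled A549 and squares for H1299, filled where the adjusted p was under 0.05. BAK1 lies below 0 and PMAIP1 above 0 in both lines, and the widest intervals belong to BCL2L2.

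The members were then set beside other genes with the same strongest seed match. Of the 400 tested genes with an 8mer, 29% were called lower in A549 and 37.8% in H1299, with median log2 fold changes of -0.14 and -0.13. Of the 7660 with no 6mer, 6.20% and 22.9% were called lower, with medians of 0.02 and 0.04. The classes between were called lower at 19.4% and 38.1% for a 7mer-m8, 19.4% and 31.1% for a 7mer-A1, and 12.2% and 30.6% for a 6mer. In H1299, where calls were many, 19.5% of the 8mer genes and 30% of those with no 6mer were called higher. The classes were not matched for 3′ UTR length. BAK1 ranked number 5 from the lowest among the 400 8mer genes in A549 and number 46 in H1299. MCL1, with an 8mer as well, ranked number 158 and number 223, near the middle of the class. PMAIP1 ranked 7638 and 7393 of the 7660 genes with no 6mer, close to the highest in both lines. The other tested members of that class were spread over it, with BAD at 1149 and 2529, BCL2L1 at 3514 and 1982 and BID at 5626 and 6528. BCL2L2 ranked number 8 and number 1 of 350 genes with a 7mer-A1, by values that rest on 1 low library in A549 and differ widely between replicates in H1299. BCL2L11 ranked 1634 and 1598 of 1713 genes with a 6mer. These ranks describe where each gene lay in its class and are not tests.

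**Figure D4:**
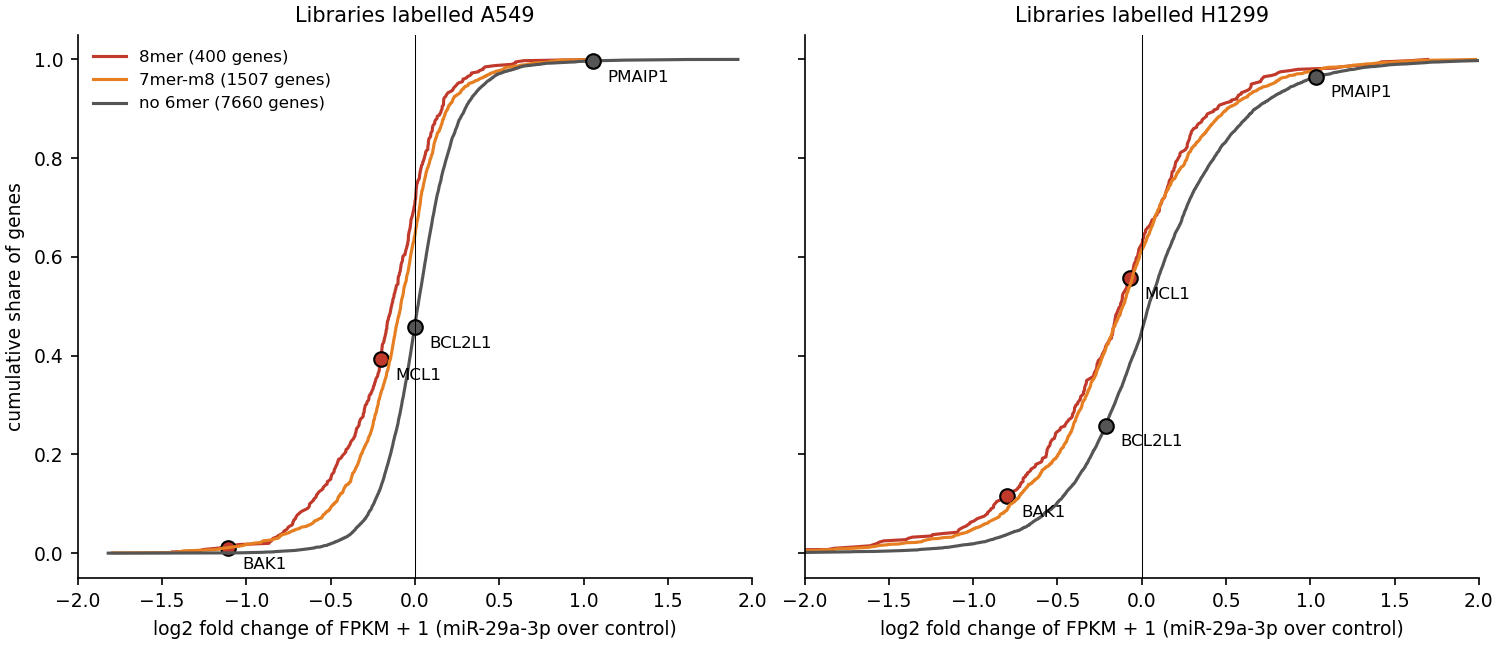
Cumulative share of genes (vertical axis) at or under a given log2 fold change of FPKM + 1 (horizontal axis, shown from -2 to 2) for genes whose strongest 3′ UTR match is an 8mer or a 7mer-m8 and for genes with no 6mer, with named members as points on the curve of their class. BAK1 sits at the low end of the 8mer curve in both lines, MCL1 near its middle, and PMAIP1 at the high end of the curve for genes with no 6mer.

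Over both lines, PMAIP1 and BAK1 were the 2 members of 8 called in the average response, against 11.0% of all genes (5.01% higher and 6.04% lower). PMAIP1 rose by 1.04 ± 0.12 (SE, adjusted p = 0.0046) and BAK1 changed by -0.96 ± 0.098 (SE, adjusted p = 0.0030). BCL2L11 (0.57 ± 0.19, adjusted p = 0.092), BID (0.34 ± 0.098, adjusted p = 0.066) and BCL2L2 (-1.28 ± 0.48, adjusted p = 0.12) did not pass. A response that differs between the lines counts as spread in this fit.

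Ratios of FPKM within a library show how the members stood to each other, and they are given without a test. PMAIP1 stood at 1.03 and 0.660 times MCL1 in the A549 controls and at 1.99 and 2.03 times after miR-29a-3p. In H1299 the ratio went from 0.439 and 0.385 to 0.902 and 0.917. The ratio of the NOXA gene to its binding partner was thus higher in every treated library than in either control of the same line. BAK1 over MCL1 moved the other way, from 0.377 and 0.337 to 0.179 and 0.172 in A549 and from 0.227 and 0.185 to 0.129 and 0.0978 in H1299.

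BAK1 and BAX, the paired pore formers, changed their order in A549. BAK1 stood at 1.91 and 1.73 times BAX in the A549 controls and at 0.714 and 0.715 times after miR-29a-3p. In H1299 BAX was the more abundant throughout, and the ratio went from 0.254 and 0.241 to 0.113 and 0.0923. The 4 survival members summed to 75.5 and 74.0 FPKM in the A549 controls and 63.5 and 68.6 after miR-29a-3p. In H1299 they summed to 101 and 108 in the controls and 86.6 and 81.9 after miR-29a-3p. These sums include BCL2L2, which varied widely between treated replicates and passed in neither line. It measured 17.2 and 17.6 FPKM in the H1299 controls against 9.67 and 2.09. In A549 it measured 7.41 and 7.39 against 1.54 and 7.30. The 6 death members summed to 75.6 and 58.3 against 94.9 and 95 in A549, and to 40.0 and 39.0 against 56.1 and 57.2 in H1299. PMAIP1 made up 55.9% and 47.3% of the death members' sum in the A549 controls and 73.7% and 78.3% after miR-29a-3p.

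**Figure D5:**
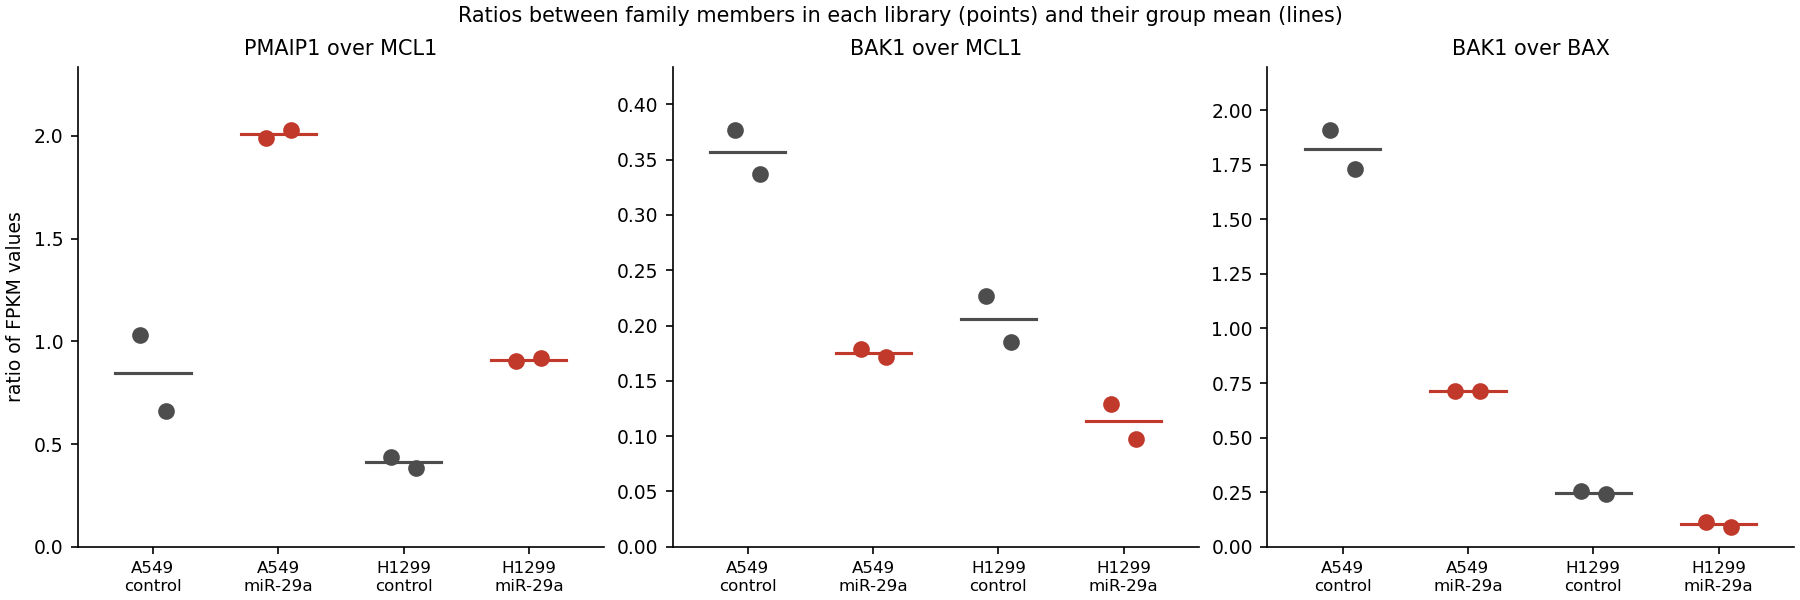
Ratio of FPKM values (vertical axes from 0) in each library (points) and its group mean (lines) for PMAIP1 over MCL1, BAK1 over MCL1 and BAK1 over BAX, by labelled line and transfection. The PMAIP1 ratio is 1.99 and 2.03 in treated A549 libraries against 1.03 and 0.660 in controls, and BAK1 over BAX passes below 1 in treated A549 libraries.

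The control libraries of the lines differed for 5 of the 8 tested members, against 74.8% of all genes tested (29.8% higher and 45.0% lower in H1299). The median log2 difference, H1299 minus A549, was 0.12 for the members and -0.17 for all genes. BCL2L1 was higher in the H1299 controls by 0.83 ± 0.067 (SE, adjusted p = 4.3e-05) and BID by 0.27 ± 0.076 (SE, adjusted p = 0.018). PMAIP1 (-0.998 ± 0.18, SE, adjusted p = 0.0019), BAK1 (-0.76 ± 0.10, SE, adjusted p = 0.00057) and BAD (-0.42 ± 0.13, SE, adjusted p = 0.020) were lower there. The BID and BAD calls were lost without either H1299 control, and also without A549 control replicate 2 for BID and replicate 1 for BAD. MCL1 did not pass (-0.03 ± 0.055, adjusted p = 0.61). With libraries rescaled to the same median, which moved the median of all genes to 0.00, MCL1 reversed to 0.17 (adjusted p = 0.024), BAD was no longer called (adjusted p = 0.15), and the other 4 calls held.

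By mean FPKM, the order in the A549 controls was MCL1, PMAIP1, BCL2L1, BAK1, BAD, BCL2L2, BID, BCL2L11, BMF and BCL2. The libraries of PMAIP1 overlapped with those of MCL1, and those of BCL2L11 with those of BMF, so these neighbours did not differ beyond their spread. After miR-29a-3p in A549, PMAIP1 came first at 70.0 to 74.4 FPKM, and BAD at 9.84 to 13.3 lay above BAK1 at 6.28 to 6.30. In the H1299 controls BCL2L1 (44.9 to 47.4 FPKM) came before MCL1 (38.8 to 42.2), followed by BCL2L2 (17.2 to 17.6), PMAIP1 (16.3 to 17.0) and then BAD above BAK1. After miR-29a-3p in H1299, BCL2L1, MCL1 and PMAIP1 lay between 33.9 and 40.2 FPKM, and the libraries of BCL2L1 and MCL1 overlapped.

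For 3 members, the genes with the most alike pattern over the 8 libraries were taken by Pearson's r, as a description. MCL1 was most like SSB (r = 0.955), TMEM141 (0.918) and MARCKS (0.902). BCL2L1 was most like FAM160A2 (0.998), SNX33 (0.997) and DNAJC12 (0.995). PMAIP1 was most like FBLN1, USP11 and TRIM14 (0.976 each). The 8 points are pairs of replicates from the same 4 groups, so line and treatment alone can give a high r.

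The other family members were followed by a list of 13 genes, of which 10 were tested. In A549 BBC3 rose, and no other passed, so 1 of 10 was called against 16.0% of all genes. In H1299 4 rose (BAX, BOK, BCL2A1 and BCL2L12) and HRK fell, so 5 of 10 were called against 50.0% of all genes, which is the background share. That count includes HRK, which entered the test only through the H1299 controls, where it is high, so its call adds nothing to the comparison. The medians were 0.07 and 0.08, beside 0.00 for all genes. BAX, the partner of BAK1, measured 34.7 and 32.4 FPKM in the H1299 controls and 43.1 and 41.7 after miR-29a-3p (0.33 ± 0.049, SE, adjusted p = 0.0019). BOK, a related pore former, went from 7.02 and 6.16 to 10.4 and 11.5 (adjusted p = 0.0011). In A549 their log2 fold changes were 0.10 (adjusted p = 0.21) and 0.08 (adjusted p = 0.60). The responses of both differed between the lines, at -0.23 for BAX (adjusted p = 0.045, lost in 11 of 14 alternatives) and -0.58 for BOK. BAK1 was the 1 pore former of these 3 that was called lower in both lines.

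Among the other survival genes, BCL2A1 went from 1.81 and 2.31 to 4.89 and 6.06 FPKM in H1299 (1.08 ± 0.17, SE, adjusted p = 0.0026), a call lost with a pseudocount of 0.1 (adjusted p = 0.054). It was under 0.53 FPKM in all A549 libraries. Of the BH3-only genes, BBC3, which encodes PUMA, went from 1.52 and 1.43 to 2.13 and 2.29 FPKM in A549 (0.37 ± 0.077, SE, adjusted p = 0.025). That call was lost in 6 of 15 alternatives, including the loss of any A549 library (adjusted p up to 0.11). In H1299 BBC3 measured 11.0 and 12.4 in the controls and 9.54 and 10.5 after miR-29a-3p (adjusted p = 0.064). HRK fell from 2.29 and 1.88 FPKM to 0.207 and 0.189 in H1299 (-1.36 ± 0.081, SE, adjusted p = 5.5e-05) and stayed between 0.160 and 0.184 in A549. It reached 1 FPKM in the H1299 controls alone and so entered the test through the group where it is high, which means it had to differ. BCL2L12 rose in H1299 by 0.37 (adjusted p = 0.020), a call lost without H1299 control replicate 2 or miR-29a-3p replicate 1 and with H1299 fitted alone (adjusted p up to 0.093). BIK, BCL2L13, BNIP3 and BNIP3L passed in neither line, and BCL2L10, BCL2L14 and BCL2L15 stayed under 0.24 FPKM.

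Genes that act on the members' proteins gave mixed counts. Of 4 tested genes of MCL1 turnover, none passed in A549 (limma, with 1 at an unadjusted p under 0.05), against 16.0% of all genes, while in H1299 FBXW7 rose and 2 fell, against 50.0% of all genes called. The 2 were USP9X, which removes ubiquitin from MCL1, and HUWE1, a ligase that marks MCL1 for destruction. USP9X went from 29.8 and 30.3 to 20.3 and 19.6 FPKM, and HUWE1 from 42.6 and 43.7 to 31.5 and 31.2. The RNA of a stabiliser and of a destroyer of MCL1 thus fell together in H1299, while MCL1 itself measured 37.6 to 39.4 FPKM beside controls of 38.8 and 42.2. Among 8 genes for kinases that phosphorylate BAD or light chains that tether BIM and BMF, 1 rose and 1 fell in A549 (16.0% of all genes called) and 3 rose and 4 fell in H1299 (50.0% of all genes called). DYNLL2, the light chain that binds BMF, rose in both lines. It went from 20.2 and 20.6 to 25.9 and 27.2 FPKM in A549 (limma, adjusted p = 0.0045). In H1299 it went from 11.9 and 11.6 to 25.1 and 25.7 (limma, adjusted p = 1.9e-05). AKT1, a kinase of BAD, rose in H1299 from 2.26 and 2.49 to 4.49 and 5.22 FPKM (limma, adjusted p = 0.00028). It measured 10.6 to 11.3 in every A549 library.

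Of 9 apoptosome and caspase genes downstream of the mitochondrial pore, 1 fell in A549 (16.0% of all genes called), and 3 rose and 4 fell in H1299 (50.0% of all genes called). The medians were -0.11 and -0.16, beside 0.00 for all genes. CASP9, the initiator caspase of the apoptosome, was the 1 called in A549 and also fell in H1299. ENDOG, a nuclease released from mitochondria, fell in H1299 from 10 and 9.64 to 5.55 and 6.18 FPKM (adjusted p = 0.00038), and AIFM1, the apoptosis-inducing factor, rose from 14.2 and 12.5 to 18.8 and 17.9 (adjusted p = 0.0018). Of 5 inhibitors of apoptosis, 1 rose and 1 fell in A549 (16.0% of all genes called), and 1 fell in H1299 (50.0% of all genes called). Their medians were -0.192 and -0.145, beside 0.00 for all genes. BIRC3 rose from 8.57 and 7.62 to 18.2 and 21.0 FPKM in A549 (limma, adjusted p = 0.0012). BIRC2 fell there from 7.29 and 6.96 to 2.997 and 3.10 (limma, adjusted p = 0.00059). In H1299 BIRC6 fell and BIRC3 and BIRC2 did not pass (adjusted p = 0.67 and 0.11).

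The death receptor arm, which reaches the mitochondria through BID, had 3 of 10 tested genes higher and 1 lower in A549, and 7 higher and 1 lower in H1299. Of all genes, 7.30% were higher and 8.66% lower in A549, and 25.1% higher and 24.8% lower in H1299. The H1299 count includes TNFSF10, which reached 1 FPKM only in the treated H1299 libraries (1.54 and 1.70 FPKM). It entered the test through the group where it is high, so its call adds nothing to the comparison. The list's medians were 0.22 and 0.38, beside 0.00 for all genes in both lines. FAS rose in H1299 from 3.10 and 3.93 to 12.7 and 13.1 FPKM (1.63 ± 0.093, SE, adjusted p = 4.8e-05). In A549 it measured 1.96 and 2.14 against 2.79 and 2.80 (adjusted p = 0.068). TNFRSF10B, the TRAIL receptor DR5, went opposite ways. It rose from 11.8 and 12.5 to 19.6 and 20.0 FPKM in A549 (limma, adjusted p = 0.00059). In H1299 it fell from 75.9 and 74.9 to 53.0 and 53.6 (limma, adjusted p = 0.00021).

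Of 8 genes from a list of stress regulators, which also holds the stress-induced gene TRIB3, 4 rose in A549 (7.30% of all genes were higher). In H1299, 1 rose and 6 fell (25.1% higher and 24.8% lower). The medians were 0.30 and -0.50, beside 0.00 for all genes. DDIT3, the stress factor CHOP, rose in A549 from 3.98 and 3.58 to 8.33 and 9.27 FPKM (adjusted p = 0.0011) and fell in H1299 from 20.0 and 21.2 to 2.88 and 3.30. TRIB3, a gene induced by such stress, went from 8.88 and 8.48 to 16.9 and 14.9 FPKM in A549 and from 144 and 135 to 15.5 and 16.0 in H1299. These responses of DDIT3 and TRIB3 differed between the lines by 3.44 and 3.87 on the log2 scale (A549 minus H1299). Whether any of the 8 genes bears on the members was not tested.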

How the data were processed

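Per the file headers, the authors' deposited table holds FPKM for each gene in each library. StringTie and GRCh38 are named in the submitters' processing notes, while versions, aligner, annotation and strand setting are not given there. Per the labels' protocols, TRIZOL was used for total RNA and a VAHTS kit for the libraries. A gene listed for 1 line only was taken as 0 in the other.

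The deposited FPKM values were tested as log2(FPKM + 1) with limma 3.58.1 in R 4.3.3, with 1 mean per group and a variance trend, over the 14635 genes that reached 1 FPKM in 2 or more of 8 libraries. Residual degrees of freedom were 4 and prior ones 2.36. The call threshold was an adjusted p of 0.05 (Benjamini-Hochberg). The contrasts were the response in each line, their difference, the average response (line as covariate) and the lines' controls. The normalised form of the planned test was used because the table holds no counts. The limma script was tested on simulated data. Library depth was estimated from the step that 1 fragment makes in genes with a single transcript, where 86.7% to 92.9% of values came out whole within 0.02. Alternatives are in the closing section.

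Positions, exon overlap and 3′ UTRs came from GENCODE 29, which held 31105 of the 31461 identifiers, and the microRNA from RefSeq (GRCh38.p14). The members and lists were chosen with earlier results of these data known. Named were all members, all other family genes, up to 2 called genes per pathway list with the largest fold change in a line (no overlap, and a group mean of 5 FPKM or more), and the 3 protein-coding genes most like MCL1, BCL2L1 and PMAIP1. FBXW7, CASP9 and BIRC6 were named after their values were seen. 1 downstream gene is not reported here and was left out of its list, TRIM17 is not analysed here, and the marker AKR1C3 was left out because its name belongs to more than 1 identifier.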

Additional observations from a re-analysis of the deposited data

Results flagged for a closer look

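The responses of the lines differed for BID among the members, at -0.40 on the log2 scale (A549 minus H1299, limma, adjusted p = 0.028). BMF lay lower in both treated A549 libraries and higher in both treated H1299 libraries, a difference of -0.20 that was not tested with the other genes because of its low level and did not pass without the filter (adjusted p = 0.32).

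Among the other family genes the differences were -0.23 for BAX, -0.58 for BOK, -1.10 for BCL2A1, 0.58 for BBC3 and 1.37 for HRK. HRK entered the test through the H1299 controls alone, the group where it is high, so its difference is not independent of the filter. BCL2L14 (-0.06) and BCL2L15 (-0.14) moved opposite ways in the lines at levels under 0.12 FPKM. They were not tested with the other genes and did not pass without the filter (adjusted p = 0.15 and 0.077).

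Among genes that act on the members, the differences were 0.53 for USP9X, 0.53 for HUWE1, -0.69 for DYNLL2 and -0.74 for AKT1. Downstream genes differed by 0.42 for ENDOG, -0.64 for AIFM1, 1.23 for BIRC3 and -0.86 for BIRC2. In the death receptor and stress lists the differences were -1.31 for FAS, 1.16 for TNFRSF10B, 3.87 for TRIB3 and 3.44 for DDIT3. The adjusted p (limma) of these tested differences other than BID ranged from 1.4e-05 (TRIB3) to 0.045 (BAX). Of all genes tested, 37.3% were called for this difference. The pathway genes were named for a large change in a line, which favours a difference between the lines.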

How the results depend on the processing

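Of 566 values of members under the alternatives, 521 stayed on the same side of the threshold, 34 lost the call and 10 gained one. The 1 reversed value was the MCL1 difference between control lines, which became 0.171 with rescaled libraries. A reversal was counted only where the main or the alternative value was called, so uncalled values that changed sign are among the 521. Of 956 values of other named genes, 929 were unchanged in this sense, 22 lost a call and 5 gained one. Leaving out 1 library gave 2 to 3 called members in A549 (main value 2), 3 to 5 in H1299 (5), 0 to 2 for the difference between responses (1), 2 to 3 for the average response (2) and 3 to 5 between the control lines (5). Over all genes it gave 1066 to 1937 calls in A549 (2336), 5892 to 7205 in H1299 (7312), 4426 to 4646 for the difference (5464), 521 to 1143 for the average (1617) and 10057 to 10887 for the control lines (10941). With only genes of a mean of at least 5 FPKM, fewer genes entered the test: 3773 were called in H1299, 2984 for the difference and 4923 between control lines, with 3 members called in H1299 and 0 for the difference (limma, 0 at an unadjusted p under 0.05). BID and BCL2L11 were below that mean and had no value there. Without the filter, 3 members were called in H1299, 0 for the difference (limma, 1 at an unadjusted p under 0.05), and 841 genes in the average response. With A549 fitted alone, on fewer samples, 1 member and 1071 genes were called. The cause of the other changes was not tested.

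Replicate numbers were not treated as pairs in the main fit. Deviations of same-numbered libraries correlated at -0.037 to 0.063 between groups over all genes tested, which cannot exclude a shift by replicate number in single genes. With the replicate block, 1261 genes were called in A549 and 85 in the average response, 1 member in the average response, where PMAIP1 lost its call (adjusted p = 0.052), and 0 for the difference (limma, 3 at an unadjusted p under 0.05). With 2 libraries per group, small changes such as that of MCL1 lie at the limit of the test, and BCL2 and BMF rest on at most 44 estimated fragments per library.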
